A study of Mus musculus with 2 samples.

Results

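A set of 9 genes of folate uptake and one-carbon unit transfer was followed in NE4C cells, and they were taken from the deposited expression table by their symbols: Folr1, Slc19a1, Shmt1, Shmt2, Mthfd1, Mthfd1l, Mthfd2, Mthfd2l and Tyms. All 9 had a row among the 16803 genes of the table. NE4C is an established mouse neural stem cell line, grown here in Eagle MEM on plates coated with poly-L-lysine. RNA was sequenced from normally cultured cells (control, 1 library) and from cells treated with homocysteine thiolactone (HTL treatment, 1 library), the cyclic thioester that forms from homocysteine and reacts with lysines of proteins. Dose and time of the treatment are not given in the labels for these libraries, and both libraries came from this 1 line. With 1 library per condition no difference has a replicate check, so the intervals and the p-values of the binomial test cover counting error between these 2 libraries and do not compare the conditions. A spread between cultures could only be assumed, which is said where it was done.

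Folate carries one-carbon units on its reduced form, tetrahydrofolate. In mitochondria, serine is the main donor: serine hydroxymethyltransferase moves its one-carbon unit to folate, and dehydrogenases, a cyclohydrolase and a synthetase turn it into formate, which leaves for the cytosol. There the units are put back on folate for the synthesis of purines and thymidylate and for the remethylation of homocysteine to methionine, and folate supply is well known for its link to closure of the neural tube.

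The libraries held 10350665 control and 9102076 HTL treatment reads, as rounded estimated reads per gene. Levels scaled to these totals are given as CPM, and the floor of 3 reads corresponded to 0.29 and 0.33 CPM. Of 10 neural stem or progenitor markers 7 reached 10 CPM in both libraries, although Fabp7 had 2 reads in each, and the summed level of the list was 604 CPM in the control and 467 CPM after HTL treatment. Sox2, Vim and Sox1 fell, with log2 ratios of -1.46, -1.01 and -1.78, and were called. Prom1 was higher at 0.51 (exact binomial test adjusted p = 1.12e-07) and Cdh2 was at -0.37. Nes, Hes1, Pax6 and Msi1 lay between -0.11 and 0.12 and did not pass. Summed markers of astrocytes, fibroblasts, endothelial cells and microglia came to at most 6.92 CPM for a list in either library, those of oligodendrocytes were at 18.6 and 21.0 CPM, nearly all of it Mbp, and those of neurons at 55.6 and 60.2 CPM. The neuron markers moved apart within this sum, since Tubb3 was at 0.60 and Dcx, which was called, at -1.40. Of the other neuron markers, Rbfox3 was at 0.34, Map2 at -0.60, Syp at -0.75 and Snap25 at -1.01, and none of these passed. The part of these marker differences in the results on folate genes was not tested. In bulk RNA, fewer cells of a type and less RNA per cell cannot be told apart.

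Among the 9 folate genes, Mthfd2 rose 2.51-fold after HTL treatment and was the gene with the largest difference. Shmt2, another mitochondrial enzyme, was 1.39-fold higher, whereas its cytosolic counterpart Shmt1 was 1.70-fold lower and Mthfd1 was 1.27-fold lower. The genes of uptake, Folr1 and Slc19a1, had nearly equal reads in both libraries. Calls asked for 0.001 or less as the p of the exact binomial test after Benjamini-Hochberg adjustment over 13442 genes, and for a log2 ratio of 1 or more in size. By this rule 1 of the 9 members was called, beside 10.8% of all genes tested (2.81% higher and 7.98% lower). By the adjusted p alone 2 members were higher, 2 were lower and 5 did not pass, beside 38.6% of all genes passing (14.5% higher and 24.1% lower), so the number of members past the test was near the background. The median log2 ratio of the members was -0.054, against -0.14 over all genes tested.

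**Figure D1:**
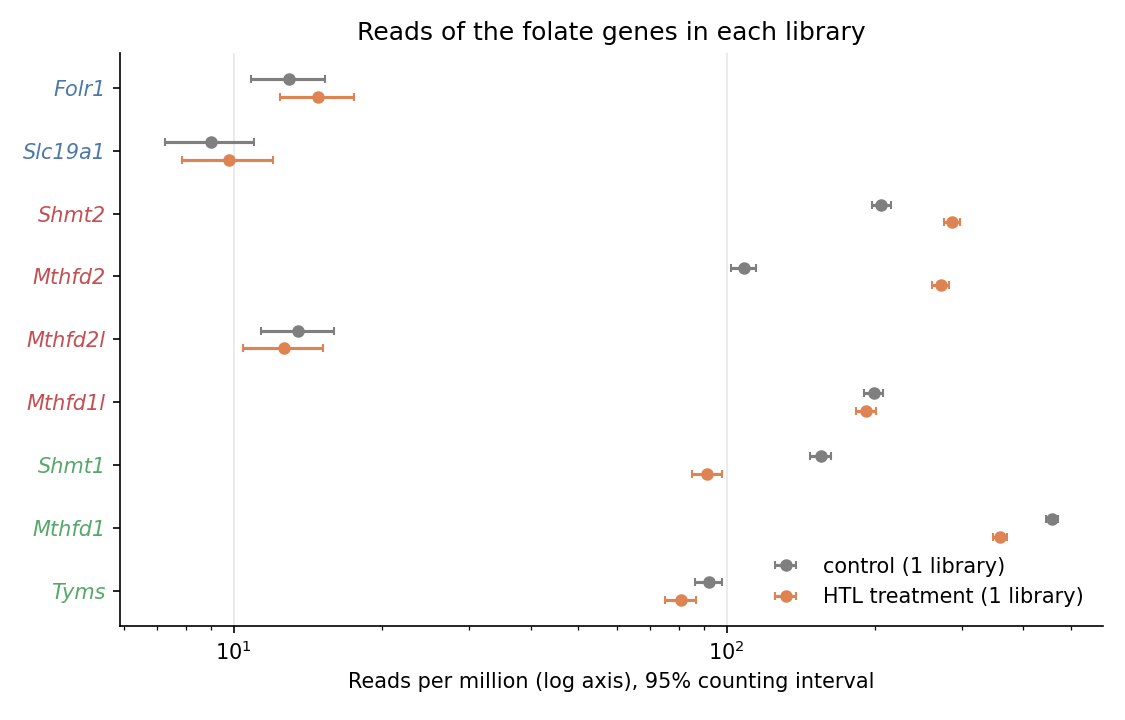
CPM of the 9 folate genes (log axis) in the control library (grey) and the HTL treatment library (orange), with bars for the 95% counting interval. Names are coloured by role: blue for uptake, red for mitochondrial and green for cytosolic or nuclear enzymes. Mthfd2 moved from 108 to 272 CPM, while the paired points of Folr1, Slc19a1, Mthfd2l and Mthfd1l lay within each other's intervals.

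Uptake was followed with a receptor and a carrier, and levels are given beside the reads as FPKM, the deposited value scaled to transcript length and library size. Folr1 encodes folate receptor alpha, which binds folate at the cell surface and takes it in by endocytosis. It had 134 reads in the control and 135 after HTL treatment (9.73 and 10.96 FPKM), a log2 ratio of 0.20 (95% interval -0.16 to 0.55, exact binomial test adjusted p = 0.359). Slc19a1, the reduced folate carrier, had 93 and 89 reads (3.81 and 4.14 FPKM), a log2 ratio of 0.12 (-0.31 to 0.56, exact binomial test adjusted p = 0.687). For either gene, a difference within its interval was not detectable at this depth. The FPKM of Folr1 was 2.55 times that of Slc19a1 in the control and 2.65 times after HTL treatment, so their order was kept. The other genes of folate entry on the list were scarcely read: Folr2, a second folate receptor, had 1 read in each library, and Slc46a1, the proton-coupled folate transporter, had 10 and 6.

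The 4 mitochondrial enzymes did not move as a group. Shmt2, which loads the one-carbon unit of serine onto folate in mitochondria, had 2133 reads in the control and 2606 after HTL treatment (89.3 and 123.84 FPKM). Its log2 ratio was 0.47 (0.39 to 0.56, exact binomial test adjusted p = 2.13e-28), under the cutoff of the call. At an assumed coefficient of variation of 0.1 between cultures it no longer passed the adjusted p (0.0774 in the exact test of edgeR). Mthfd2, the mitochondrial methylenetetrahydrofolate dehydrogenase and cyclohydrolase, had 1120 and 2475 reads (52.29 and 131.14 FPKM). Its log2 ratio of 1.33 (1.23 to 1.43, exact binomial test adjusted p = 6.95e-155) exceeded that of 97.6% of the genes tested. Mthfd2 went from the 91.5th to the 96.6th percentile of FPKM among all genes of the table. Its call held when a coefficient of variation of 0.1 between cultures was assumed in the exact test of edgeR (adjusted p = 2.51e-08) and was lost at 0.2 (adjusted p = 0.0370).

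Mthfd2l, a second mitochondrial enzyme of the same step, had 140 and 115 reads (5.99 and 5.58 FPKM). Its log2 ratio was -0.098 (-0.47 to 0.27, exact binomial test adjusted p = 0.698). Mthfd1l, the mitochondrial synthetase that releases formate, had 2058 and 1743 reads (53.02 and 51.04 FPKM), a log2 ratio of -0.054 (-0.15 to 0.039, exact binomial test adjusted p = 0.341). Mthfd1l follows Mthfd2 in the mitochondrial route. The signs of Mthfd2l and Mthfd1l were not fixed by the data, since with TMM scaling their log2 ratios were 0.032 and 0.076.

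The 3 cytosolic or nuclear enzymes all lay below 0, as did 7893 of the 13442 genes tested. Shmt1, the cytosolic serine hydroxymethyltransferase that also enters the nucleus, had 1608 reads in the control and 831 after HTL treatment (74.94 and 43.94 FPKM). Its log2 ratio was -0.77 (-0.89 to -0.65, exact binomial test adjusted p = 9.34e-36), which put it at the 18.6th percentile of the genes tested and short of the cutoff. At an assumed coefficient of variation of 0.1 the adjusted p was 0.00279 for Shmt1 and 0.215 for Mthfd1 in the exact test of edgeR, and neither passed. Mthfd1, a single cytosolic protein with dehydrogenase, cyclohydrolase and synthetase activity, had 4725 and 3265 reads (136.46 and 107.01 FPKM), the highest FPKM of the members in the control. Its log2 ratio was -0.35 (-0.41 to -0.28, exact binomial test adjusted p = 2.25e-25). Tyms, thymidylate synthase, had 951 and 735 reads (24.0 and 21.05 FPKM), a log2 ratio of -0.19 (-0.33 to -0.046, exact binomial test adjusted p = 0.0180) that did not pass and was close to the median of all genes.

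**Figure D2:**
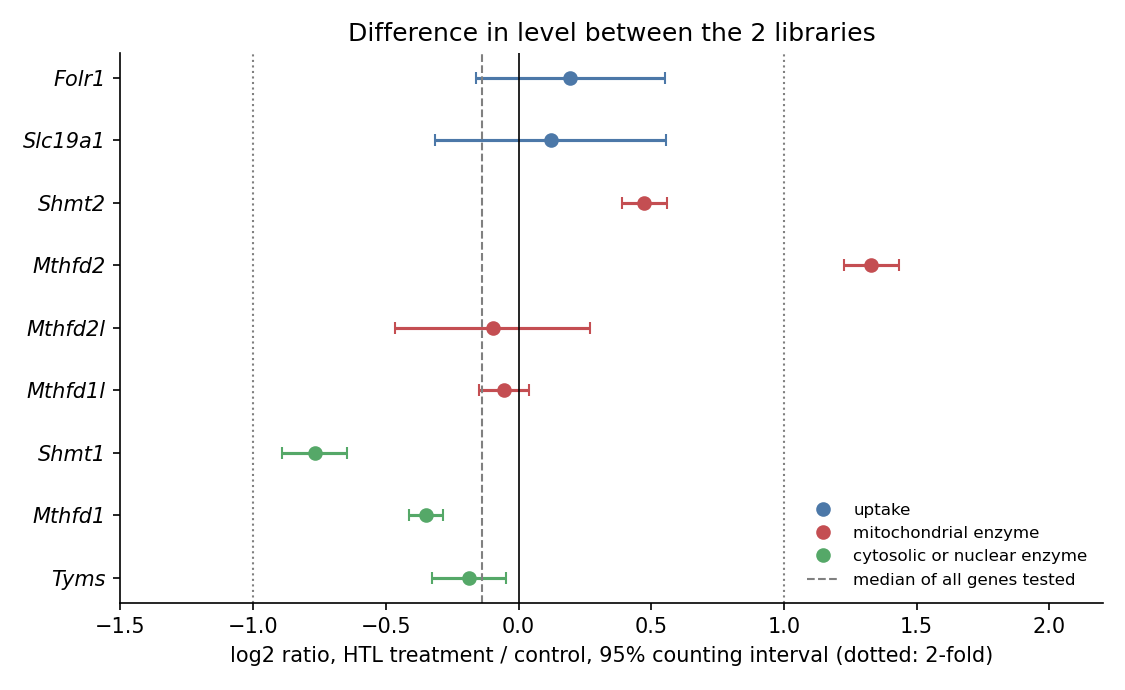
Log2 ratio of HTL treatment to control for the 9 folate genes, with the 95% counting interval, coloured by role. The dashed line is the median of all genes tested (-0.14) and the dotted lines mark the cutoff of the call. Mthfd2 is the only member beyond a dotted line, and the 3 green points are all below 0.

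Longer transcripts had lower log2 ratios, and the members were therefore also compared with genes of like length. The median log2 ratio of all genes ran from 0.14 in the shortest of 10 length classes of equal size to -0.38 in the longest, and the members were set against the class that held them. Mthfd2 was then 1.44 above its class and Shmt2 0.59 above it, while Shmt1 lay at -0.65 and Mthfd1 at -0.18. Mthfd1 was thus nearer to 0 than the -0.35 of the column totals, as was Tyms at -0.018. Mthfd1l turned from -0.054 to 0.11 (exact binomial test adjusted p = 0.0304, which did not pass) and Mthfd2l came to 0.015.

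The scaling of the libraries moved all members alike. TMM shifted the median of all genes by 0.13, the median of ratios by 0.14 and the upper quartile by 0.093 on the log2 scale. Mthfd2 then had log2 ratios between 1.42 and 1.47, and Shmt1 between -0.67 and -0.63. Of the members only Mthfd1l, under each of these 3 scalings, and Mthfd2l, under TMM and the median of ratios, changed sign.

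**Figure D3:**
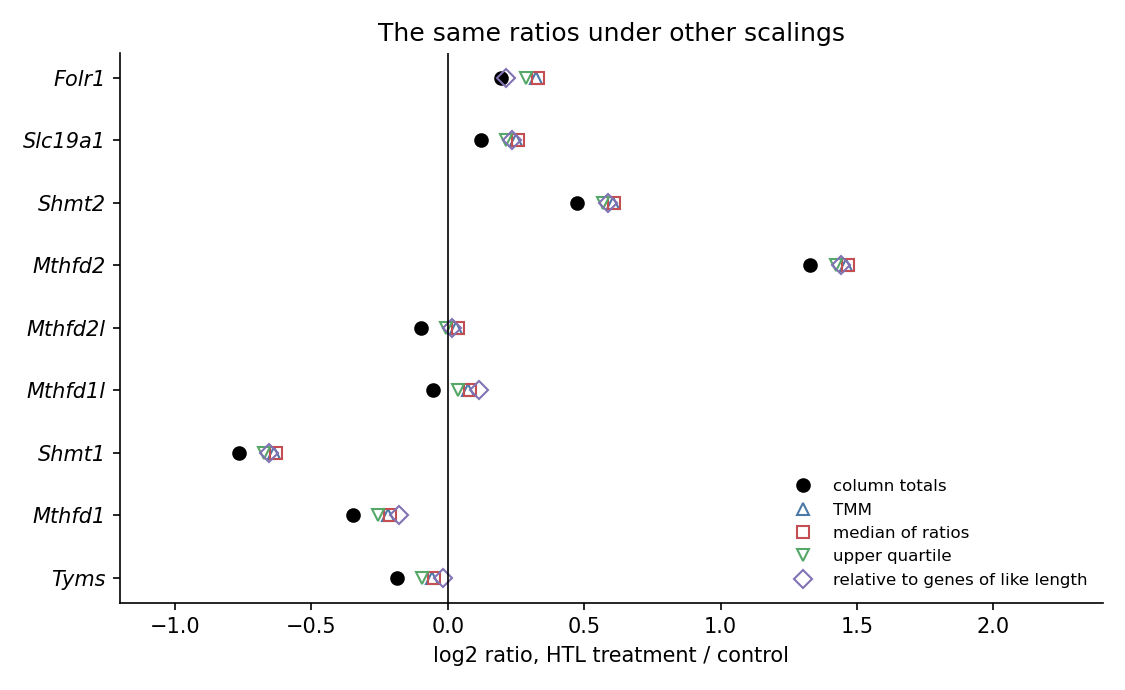
Log2 ratio of HTL treatment to control for the 9 folate genes with the libraries scaled by column totals (black), TMM, the median of ratios, the upper quartile, or set against genes of like length. The symbols of a gene lie close together, and only those of Mthfd2l and Mthfd1l fall on both sides of 0.

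A comparison of 2 genes within the same libraries does not depend on the scaling, and 5 such pairs were formed. The log2 ratio of Shmt2 exceeded that of Shmt1 by 1.24 (95% interval 1.09 to 1.39), and their FPKM ratio went from 1.19 in the control to 2.82 after HTL treatment. Mthfd2 exceeded Mthfd2l by 1.43 (1.05 to 1.81), with an FPKM ratio of 8.73 and then 23.5. Against Mthfd1, which performs the same reactions in the cytosol, the difference of Mthfd2 was 1.68 (1.56 to 1.80), and their order by FPKM was turned, from a ratio of 0.383 to 1.23. Mthfd1l and Mthfd1 differed less, by 0.29 (0.18 to 0.41). Between Folr1 and Slc19a1 the difference was 0.074, and its interval from -0.49 to 0.64 held 0.

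Put as shares of transcript level, the mitochondrial form made up more of each step after HTL treatment. Shmt2 took 54.4% of the summed FPKM of Shmt1 and Shmt2 in the control and 73.8% after HTL treatment. At the dehydrogenase and cyclohydrolase step, Mthfd2 with Mthfd2l took 29.9% and then 56.1% of the sum with Mthfd1. For the formyltetrahydrofolate synthetase step the share of Mthfd1l was 28.0% and 32.3%, while its own FPKM went from 53.02 to 51.04 and that of Mthfd1 from 136.46 to 107.01. These are shares of transcripts in 1 library each, with no SD, and they say nothing of protein or of flux.

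**Figure D4:**
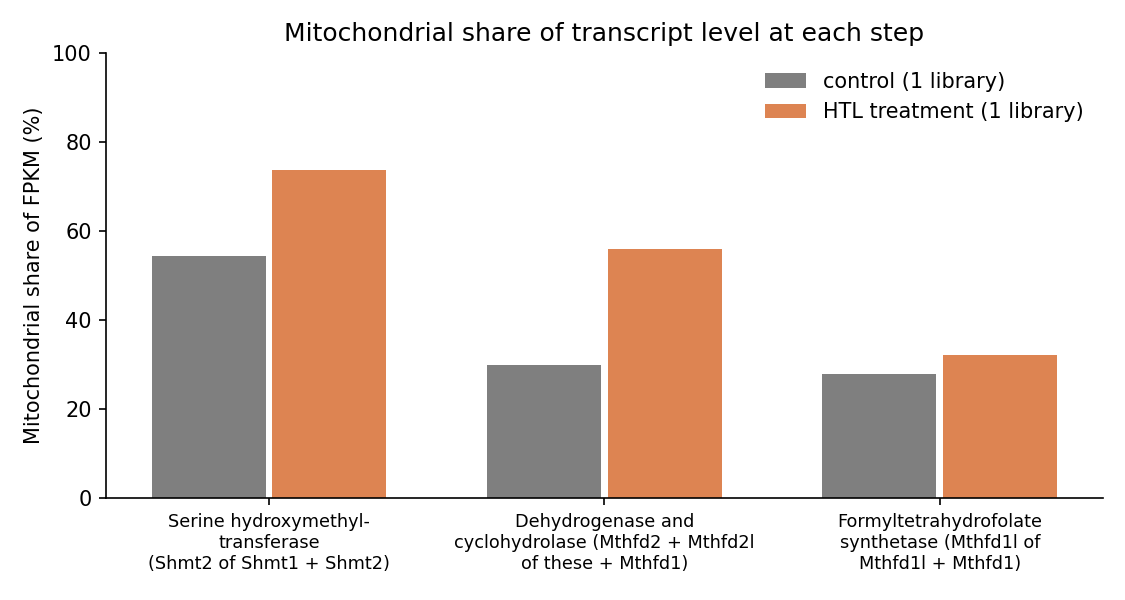
Percent of the summed FPKM held by the mitochondrial gene or genes at 3 steps of one-carbon transfer, in the control library (grey) and the HTL treatment library (orange). The orange bar is the taller at each step, by 19.4, 26.2 and 4.31 percentage points, and there are no error bars because each bar is 1 library.

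By FPKM, the order in the control ran Mthfd1, Shmt2, Shmt1, Mthfd1l, Mthfd2, Tyms, Folr1, Mthfd2l and Slc19a1, over a 35.8-fold range. Mthfd1l and Mthfd2 were neighbours there, at 53.02 and 52.29 FPKM. After HTL treatment Mthfd2 stood first, followed by Shmt2, Mthfd1, Mthfd1l, Shmt1, Tyms, Folr1, Mthfd2l and Slc19a1, over a 31.7-fold range. The 4 lowest genes thus kept their places. Whether neighbours in these orders differ beyond the spread of cultures cannot be said from 1 library each. The 9 genes together accounted for 0.125% of all reads in the control and 0.132% after HTL treatment.

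Gene positions were read on NCBIM37 (mm9) from GENCODE. The genes of uptake were Folr1 at chr7:109006845-109019302 on the minus strand and Slc19a1 at chr10:76494986-76523747 on the plus strand. Of the mitochondrial enzymes, Shmt2 lay at chr10:126954195-126959491, Mthfd2 at chr6:83255685-83267600 and Mthfd1l at chr10:6179460-6373423, all on the minus strand, and Mthfd2l at chr5:91360222-91450386 on the plus strand. Of the others, Shmt1 lay at chr11:60601606-60625220 and Tyms at chr5:30384742-30400157 on the minus strand, and Mthfd1 at chr12:77356219-77420807 on the plus strand. Exons of Shmt1 overlapped those of Smcr8 on the opposite strand by 184 bases, and Smcr8 had 859 and 649 reads. For Shmt2 the overlap was 14 bases with Ndufa4l2, which had 6 and 4 reads, and for Tyms 14 bases with Gm17448. Use of strand in counting is not given in the sources used here, so reads in these bases could belong to either gene. None of the 50-base words in the transcripts of 8 members occurred in another protein-coding gene, but 157 of 3966 (3.96%) did so for Tyms, so part of its reads could be split with other genes.

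Promoters are shown for the 4 genes past the adjusted p and for Tyms, the thymidylate gene of the group, to set the sequence of the called gene beside those of genes that were not called. Each line is the 120 bases before the start of the gene in RefSeq (GRCm38.p6 table), 5′ to 3′ on the strand of the gene, placed on NCBIM37 by its single exact match. Capitals mark CCAAT, or ATTGG where it is read on the other strand, in Mthfd2, Shmt1 and Mthfd1, and CACGTG in Tyms. No base of Shmt2 is marked.
Mthfd2, chr6:83267599-83267718, minus strand: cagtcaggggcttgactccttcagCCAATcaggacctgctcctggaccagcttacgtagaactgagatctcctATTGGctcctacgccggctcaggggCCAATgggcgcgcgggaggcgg
Shmt2, chr10:126959501-126959620, minus strand: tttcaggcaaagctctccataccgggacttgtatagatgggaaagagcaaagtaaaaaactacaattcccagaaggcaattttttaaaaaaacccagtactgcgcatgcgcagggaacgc
Shmt1, chr11:60624768-60624887, minus strand: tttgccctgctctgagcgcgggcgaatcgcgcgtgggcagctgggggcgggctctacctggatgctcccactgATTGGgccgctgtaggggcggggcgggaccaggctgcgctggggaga
Mthfd1, chr12:77356099-77356218, plus strand: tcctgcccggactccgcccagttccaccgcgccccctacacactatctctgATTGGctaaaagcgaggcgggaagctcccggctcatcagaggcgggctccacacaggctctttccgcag
Tyms, chr5:30400166-30400285, minus strand: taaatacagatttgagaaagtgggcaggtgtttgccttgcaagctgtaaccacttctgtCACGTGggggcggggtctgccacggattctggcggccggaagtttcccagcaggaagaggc

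The last 2 bases of the Mthfd2 stretch were exonic in GENCODE, and the Shmt1 stretch lay within the annotated span of that gene but in no exon. The letters were searched in windows from 250 bases before to 50 bases after the start, on both strands, in 9 windows of 8 members (Slc19a1 had 2, and Folr1 was not searched), beside 32851 windows of the whole table. CCAAT, chosen after the sequences had been seen, was held by 3 of the 9 member windows, beside 37.4% of all windows. It was found 3 times in Mthfd2 and once each in Shmt1 and Mthfd1. The share of all windows with 3 copies was not computed. Counted from the start, its copies began at -96, -47 and -22 in Mthfd2, at -47 in Shmt1 and at -69 in Mthfd1, those at -47 and -69 on the opposite strand. CACGTG, the E-box, was found in Tyms alone, at -61 (7.15% of all windows). TGATGNAA, the core of the C/EBP-ATF response element, was in none of the 9 windows (3.97% of all windows), nor was the ER stress response element (0.119%). The E2F forms TTTCCCGC, TTTGGCGC and TTTCGCGC were in none either (1.07%, 0.514% and 0.323%). CCAAT is also how the ER stress response element begins. These matches describe letters in a window and do not locate bound sites.

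The rest of the folate pathway was listed as 26 further genes, of which 23 were analysed. Sardh, Dmgdh and Izumo1r were not analysed here, and Ftcd, Folr2 and Gnmt had too few reads to be tested. Of the 20 tested, 2 were called, 1 in each direction, beside 10.8% of all genes. By the adjusted p alone 3 were higher, 6 were lower and 11 did not pass, beside 14.5% higher and 24.1% lower over all genes, so both counts were near the background. The median log2 ratio was -0.29. Mtrr, the reductase that keeps methionine synthase active in homocysteine remethylation, had 424 reads in the control and 156 after HTL treatment. It fell by 1.25 on the log2 scale (exact binomial test adjusted p = 1.39e-21), a call that was lost at an assumed coefficient of variation of 0.2 (adjusted p = 0.0710 in the exact test of edgeR). Mtr, methionine synthase itself, named after its values were seen, went from 410 to 295 reads, and its log2 ratio of -0.29 did not pass (exact binomial test adjusted p = 0.0183). Aldh1l1, the cytosolic formyltetrahydrofolate dehydrogenase, had 21 and 56 reads and rose by 1.58 on the log2 scale (exact binomial test adjusted p = 1.78e-05), a call that was lost with FPKM + 1, where its log2 ratio was 0.85, and at an assumed coefficient of variation of 0.1 (adjusted p = 0.00112 in the exact test of edgeR). With a mean of at least 50 reads it was not tested. Aldh1l1 is also used as a marker of astrocytes, and the astrocyte markers Gfap and Slc1a2 had 2 and 6 reads in the control and 0 and 3 after HTL treatment.

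Other genes of the pathway are named here after their values were seen. Aldh1l2, the mitochondrial counterpart of Aldh1l1, went from 238 to 410 reads, with a log2 ratio of 0.97, just under the cutoff. With the same adjusted p rule it was called with TMM, where its log2 ratio was 1.10. Gldc, a subunit of the mitochondrial glycine cleavage system, was at 0.35, and Gcsh, another subunit of it, at -0.36. Of its other subunits listed, Amt was at 0.33 and Dld at -0.12, and neither passed. Among users of the cytosolic units, Gart, an enzyme of purine synthesis, went from 3172 to 1861 reads, with a log2 ratio of -0.58, while Atic, which acts in the same pathway, was at -0.11 and did not pass. Fpgs, which adds the glutamate tail that holds folate in cells, was at -0.54.

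**Figure D5:**
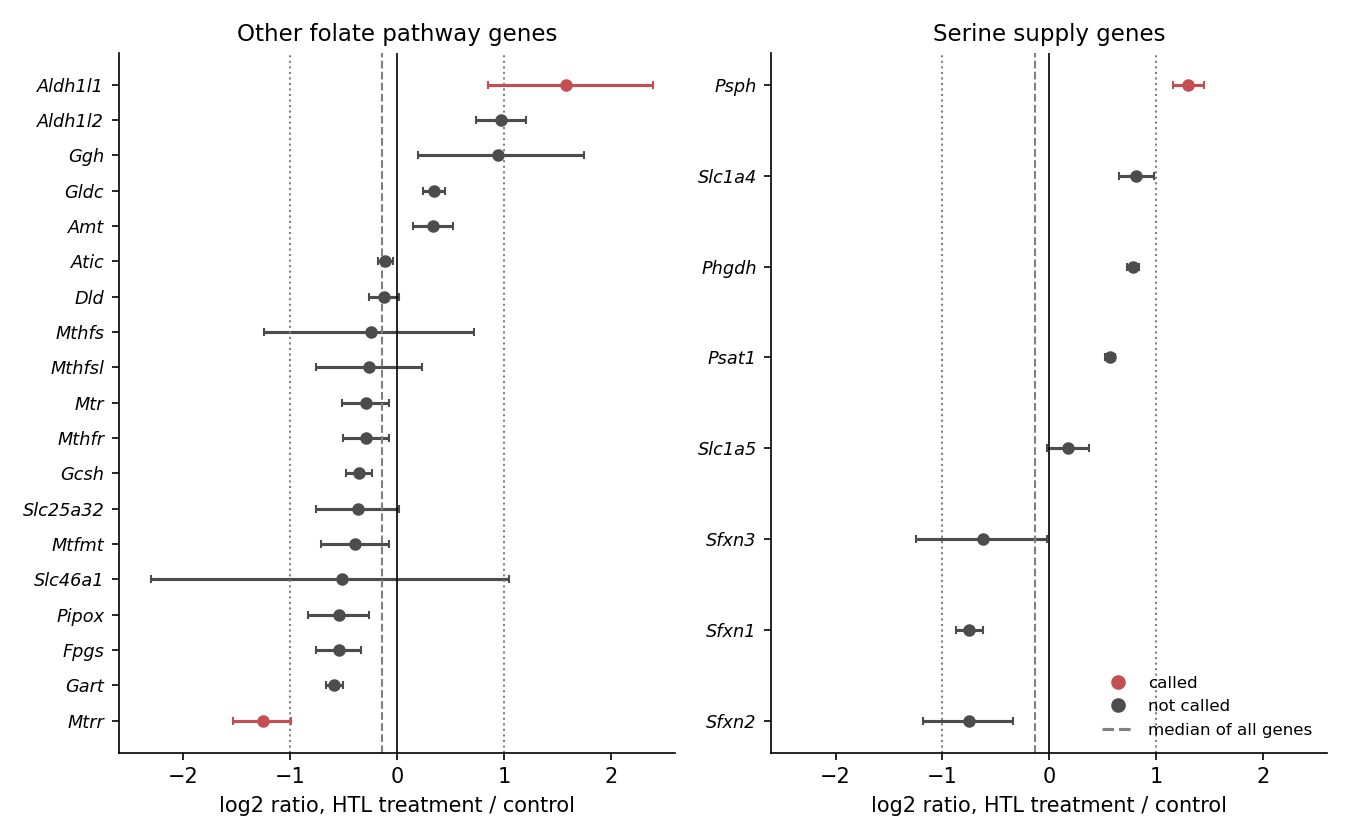
Log2 ratio of HTL treatment to control for 19 of the 20 other folate pathway genes tested (left) and 8 serine supply genes (right), with 95% counting intervals, called genes in red and the median of all genes dashed. Aldh1l1, Mtrr and Psph lie beyond the dotted cutoff and are called. Of the 19 points on the left 14 lie below 0, as do 7893 of the 13442 genes tested.

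Serine supply, which feeds Shmt1 and Shmt2, was followed with 8 genes. One was called, Psph, the phosphatase of the last step of serine synthesis, with 573 reads in the control and 1237 after HTL treatment, a rise of 1.29 on the log2 scale (exact binomial test adjusted p = 1.22e-74). At an assumed coefficient of variation of 0.2 its call was lost (adjusted p = 0.0475 in the exact test of edgeR). Over all genes 10.8% were called. By the adjusted p alone 4 of the 8 were higher and 2 were lower, beside 14.5% and 24.1% of all genes, and the median of the 8 log2 ratios was 0.37. The other genes of this list named here were chosen after their values were seen. The enzymes of the steps before Psph were Phgdh with 4772 and 7207 reads (log2 ratio 0.78) and Psat1 with 7320 and 9526 reads (0.57). The neutral amino acid carrier Slc1a4 was at 0.81, and Sfxn1, which carries serine into mitochondria, had 1491 and 780 reads and was at -0.75. Of the other Sfxn genes listed, Sfxn2 had 144 and 75 reads and was also at -0.75. Sfxn3, with 65 and 37 reads, was at -0.62 and did not pass. Thus each of the 3 genes of serine synthesis had a higher level in the HTL treatment library, while Sfxn1 and Sfxn2 had lower ones. Phgdh and Psat1 were under the cutoff of the call. Whether these differences exceed the spread of cultures cannot be said from 1 library each. The log2 ratios of the 3 lay between those of Shmt2 and Mthfd2. However, the 95% interval of Psat1 (0.52 to 0.61) overlapped that of Shmt2, and that of Psph (1.15 to 1.44) overlapped that of Mthfd2.

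A wider list was taken from the process terms of the table itself, by the words folic acid, folate or one-carbon. It held 20 genes, 18 of them tested, of which 2 were called, both higher, beside 10.8% of all genes called (2.81% higher). Besides Aldh1l1 this was Gch1, which starts the synthesis of tetrahydrobiopterin, with 50 and 136 reads and a rise of 1.62 on the log2 scale (exact binomial test adjusted p = 3.18e-12). Its call was lost at an assumed coefficient of variation of 0.2 (adjusted p = 0.0234 in the exact test of edgeR). The median of the list was -0.27. The lists of folate and serine genes share none of their genes with the members, but the wider list holds Folr1, Shmt1, Shmt2 and Tyms, and all but 3 of its genes are members or in the list of other folate genes.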

How the data were processed

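RNA of 1 control and 1 HTL treatment culture of NE4C was sequenced on a BGISEQ-500 from TruSeq libraries. The authors estimated reads per gene with RSEM, so the deposited estimated counts are not whole (21.8% fractional in the control, 20.2% after HTL treatment), and deposited FPKM values scaled to transcript length and library size. The submitters' processing notes name mm9. Aligner, versions, annotation and strand are not given in the sources used here. The table also holds the authors' log2 ratio, p-value, FDR and direction, which were not used.

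Estimated counts were rounded and scaled to column totals, with 0.5 read added for log2 ratios. Tests covered the 13442 of 16803 genes whose reads summed to 10 or more over the libraries, with a two-sided exact conditional binomial test (scipy 1.17.1) with Benjamini-Hochberg adjustment and Clopper-Pearson 95% intervals. Without molecular identifiers reads cannot be counted as molecules, and these cover counting error only. The cutoffs were those of the study's methods. Neither edgeR's quasi-likelihood test nor DESeq2 could be fitted with 1 library per condition. Pairs of members were compared by the exact conditional interval of the odds ratio of their reads. Alternatives were TMM (edgeR 4.0.16), median of ratios (DESeq2 1.42.0) and upper quartile scaling, other filters, added reads and cutoffs, FPKM + 1, 10 length classes, and the exact test of edgeR at an assumed coefficient of variation of 0.1, 0.2 or 0.4. The tests were run on simulated counts that held counting error only, so this check does not bear on a spread between cultures.

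The members, lists and motifs were chosen with earlier results of these data known. Besides the members, other folate, serine supply and marker genes were listed, and a wider list was read from the process terms of the table. Named genes were the 9 members and all called genes of each list, and other pathway genes are said to be named after their values were seen, except those named for having too few reads. A folate pathway gene is counted in its list but not reported here by name or in a figure.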

Additional observations from a re-analysis of the deposited data

How the results depend on the processing

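No paired analysis was possible because the control and the HTL treatment have a single library each, and for the same reason none could be left out. Under the other settings the number of members called was 4 with no cutoff on the log2 ratio (Mthfd1, Mthfd2, Shmt1 and Shmt2), 2 with a 1.5-fold cutoff (Mthfd2 and Shmt1), and 0 with an assumed coefficient of variation of 0.2 or of 0.4, and otherwise 1. Of the other folate genes, 3 were called, Aldh1l2 being added, with each of the 3 other scalings, the 1.5-fold cutoff and the length class, 9 were called with no cutoff on the log2 ratio, 1 with a mean of at least 50 reads, 1 with FPKM + 1, 1 at a coefficient of variation of 0.1, and 0 at 0.2 and at 0.4. Of the serine supply genes 6 were called with no cutoff and 5 with the 1.5-fold cutoff, and 0 at a coefficient of variation of 0.2 and of 0.4. Over all genes the count moved from 1450 to 816 with FPKM + 1, 5195 with no cutoff on the log2 ratio, 3165 with the 1.5-fold cutoff, and 120 and 6 at a coefficient of variation of 0.2 and 0.4. The split of called genes was 378 higher and 1072 lower, and became 552 and 800 with TMM, 559 and 788 with the median of ratios, 498 and 860 with the upper quartile, and 556 and 740 relative to the length class.

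The members' median log2 ratio was 0.076 with TMM, 0.082 with the median of ratios, 0.039 with the upper quartile and 0.11 relative to the length class, the values of Mthfd1l, whose sign reversed under these 4. Mthfd2l reversed to 0.032, 0.038 and 0.015 with TMM, the median of ratios and the length class. The 3 other scalings move genes up by nearly the same amount, which gives their part of these shifts, and the length correction subtracts the median of the class of the gene, which is below 0 for the classes of both. At a coefficient of variation of 0.1 the calls of Mtrr, Psph and Gch1 held. Differences between members of a pair changed by less than their intervals with FPKM or after the length correction.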
